A study of Caenorhabditis elegans with 59 samples.

Results

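In the generation 50 small RNA table, 427 genes of the class marked mut kept, on average, a small RNA level within 2-fold of the wild type in animals without the PIWI protein PRG-1. They were chosen from the values of that table by 3 conditions: an entry of class mut that is no transposon, a wild-type mean of at least 50 normalized reads, and a prg-1 mean of 0.5 to 2 times the wild-type mean. The table lists 23411 features, among them 2243 genes of class mut, of which 2202 reached the minimum. Of these 2202 genes, 1412 had a ratio under 0.5 and 363 a ratio over 2. A working name of PRG-1-independent small RNAs holds for the mean of this table only. In generation 1 prg-1, 73 of 256 tested members had more and 78 less small RNA than the wild type, where 27.9% of all features were called higher and 38.3% lower, and in prg-1(tm872) 64 of 254 had more and 136 less, where 34.2% were higher and 41.4% lower. The genes are called here by the rule that chose them.

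Small RNAs of this kind arise in relays. In the Caenorhabditis elegans germline, PRG-1 carries piRNAs, which find transcripts by base pairing, and RNA-dependent RNA polymerases then copy the found transcript into secondary small RNAs that worm-specific Argonautes carry. The copying takes place in perinuclear foci built by the mutator complex, in which MUT-14 and SMUT-1 are closely related RNA helicases, and other primary pathways such as the one of the Argonaute ERGO-1 feed the same copying step.

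All libraries came from whole gravid adults grown at 20 °C. The triple mutant GR2070 carried prg-1(n4357), mut-14(mg464) and smut-1(tm1301). The mut-14 smut-1 strain GR1948 carried the same mutator alleles and in addition unc-119(ed3), which the label of the triple mutant does not give, so in comparisons of these strains unc-119 and prg-1 cannot be told apart. Against the wild type, unc-119 and the mutator alleles of GR1948 cannot be told apart either. Differences of the mutator effect between backgrounds carry the same limit. SX922 carried prg-1(n4357), WM161 carried prg-1(tm872), and the wild type was N2. Generation 1 animals, collected at 72 h, gave 3 mRNA libraries per genotype and 3 small RNA libraries per genotype, with 2 of mut-14 smut-1. Generation 50 gave 3 lines per genotype for both kinds of RNA, with no age in the labels. WM161 was sampled at 68 h with its own wild type, 3 small RNA libraries each. Small RNA of 16 to 30 nt was treated with polyphosphatase, and mRNA libraries used rRNA-depleted RNA over 200 nt. Outside generation 50 nothing states that replicates came from separate cultures, so p-values there measure the spread between these libraries, which may be technical.

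Depth differed by genotype in generation 1 small RNA, with 224056 to 760735 reads in the triple and mut-14 smut-1 mutants against 1300861 to 2117438 reads in prg-1 and the wild type. It was 1533620 to 2452755 reads at 68 h and 4417660 to 13038182 at generation 50, and about 12074468 to 63760276 reads in the mRNA libraries. The mutated genes carried their labels: prg-1 mRNA of generation 1 averaged 3905 ± 81.4 in prg-1 and 10339 ± 315 in the wild type, and mut-14 mRNA 42.7 ± 5.82 in mut-14 smut-1 against 1810 ± 53.0 in wild-type animals (SD, n = 3 each). Some small RNA libraries stood apart. The third triple-mutant library of generation 1 was highest of the 3 in 79 of the 131 members with a mean of at least 5, with a member total of 4899 against 3574 and 3438 in the others. The first mut-14 smut-1 library of generation 1 was the higher of 2 in 93 of 133 members, with a total of 5709 against 4642. At generation 50, mut-14 smut-1 line 3 had a total of 58608 against 31173 and 30694, and wild-type line 2 was highest in 305 of 427 members, with a total of 703799 against 613493 and 675968. Scaling to library totals in place of the deposited scaling moved the median log2 change of all features in generation 1 small RNA by 1.57 for the triple mutant against prg-1, 1.10 for mut-14 smut-1 and −0.56 for prg-1 against the wild type, at 68 h by −0.25, and in mRNA by −0.18 to 0.21. Changes below are relative to the deposited scaling, on a log2(value + 1) scale, and were called at a Benjamini-Hochberg adjusted p under 0.05 from limma over all features of a table.

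The members were a mixed group of loci. The table gives 293 as genes, 52 (12.2%) as pseudogenes and 82 (19.2%) as coding sequence entries, against 5.74% and 2.9% of the 1412 genes under 0.5 and 12.1% and 19.6% of the 363 genes over 2. Many of the coding sequence entries are near copies of each other in this table: 65 members fell into 9 sets, linked entry to entry where all 6 prg-1 and wild-type values were within 2%, which leaves 371 separate profiles. The largest such set held 36 entries with wild-type means of 127 to 134, and reads that these entries share cannot be assigned to one of them. Pseudogenes and coding sequence entries had no row in the generation 1 and 68 h small RNA tables, which listed 293 and 280 members.

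A second class label set some members apart. The class ergo, named for the ERGO-1 pathway, held 49 members, which is 11.5% of the members and 39.8% of the 123 genes of that class. It held 14 of the genes under 0.5 and 16 of the genes over 2. A further 13 members were also listed in class csr, 11 in class alg and 8 in class histone. Among gene families, 20 members were named as F-box or MATH genes, adaptors of ubiquitin ligases, and 9 as chemoreceptors. No member belonged to the lists of mutator factors, Argonautes, piRNA factors, germ granule components or nuclear RNAi factors.

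At generation 50 the members carried 8.32%, 9.56% and 7.86% of the small RNA table in the 3 prg-1 lines and 9.02%, 9.48% and 9.55% in the 3 wild-type lines. In the mutator mutants almost none of this was left: 0.340%, 0.378% and 0.432% in the triple mutant and 0.361%, 0.363% and 0.509% in mut-14 smut-1. These libraries include the ones that chose the members, so the levels are a description without a test. In bulk RNA of whole animals, fewer germ cells and less small RNA per germ cell cannot be told apart. The summed mRNA of 6 germline markers at generation 50 averaged 32825 ± 2320 in the triple mutant, 25267 ± 4049 in mut-14 smut-1, 31718 ± 2798 in prg-1 and 28727 ± 2138 in the wild type (SD, n = 3 each).

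**Figure D1:**
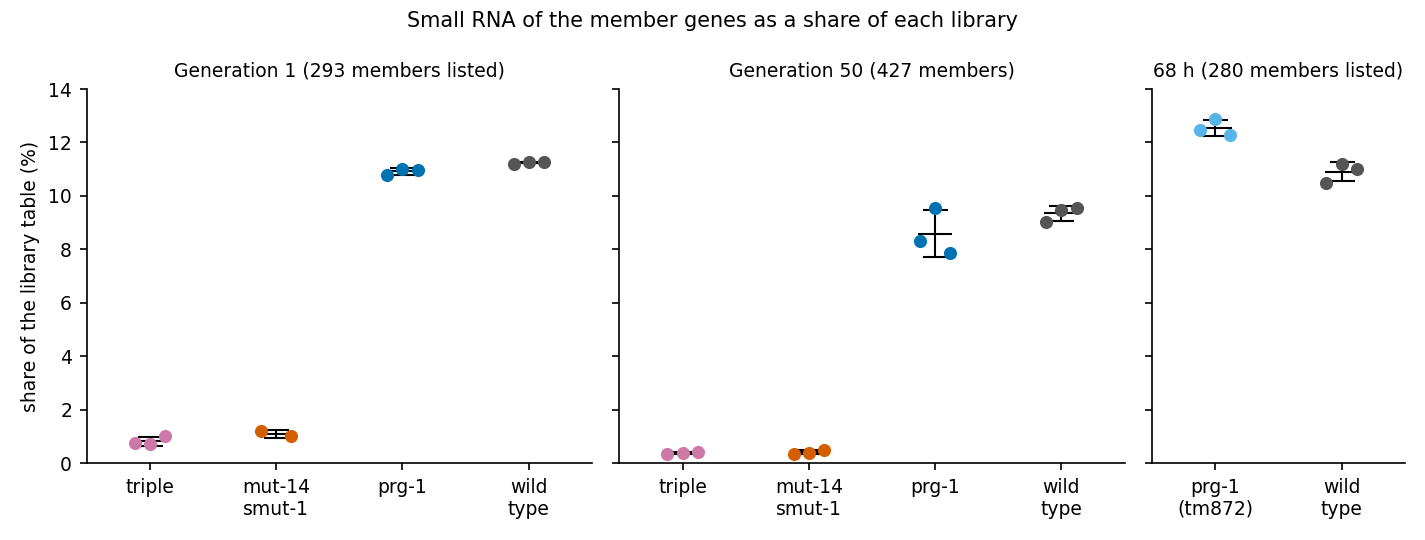
Share of each small RNA library table (vertical axis, in %) that fell on the member genes, by genotype and series. Points are libraries and bars are the mean ± SD. The triple and mut-14 smut-1 libraries sit at 1.19% or lower, the prg-1 and wild-type libraries at 7.86% or higher.

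The wild-type means of the members ran from 51.3 to 54084 normalized reads with a median of 274. The medians were 10.5 in the triple mutant, 15.9 in mut-14 smut-1 and 258 in prg-1. The median member of mut-14 smut-1 animals kept 3.24% of its wild-type level. Of the 427 members, 296 were under 0.1 of it, and 11 stayed at 0.5 to 2 times the wild type. Other genes of class mut lost as much, with medians of 2.29% at a prg-1 ratio under 0.5 and 3.77% at one over 2. Among the members, the median was 12.7% in class ergo and 2.32% in the 378 outside that class. The 82 coding sequence entries among these 378 had a median of 0.937%. Among entries given as genes, it was 13.8% in 38 ergo members and 6.37% in 255 others, and the difference was not tested. Genes of class ergo have a second row under that class with other values, whose content is not stated, and the values here are those of the mut rows. Of the members, 11 also kept 0.5 to 2 times their prg-1 level in the triple mutant, counted over the 409 members at 50 or more in prg-1.

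**Figure D2:**
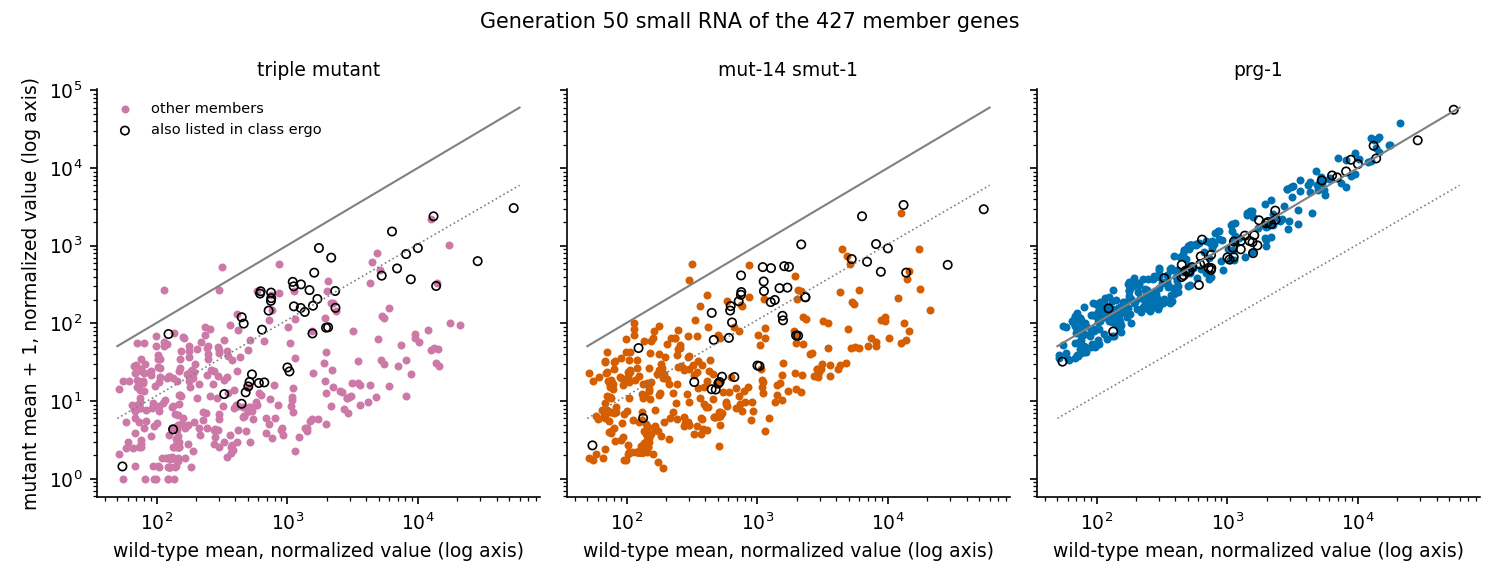
Mean small RNA of each member at generation 50 in the triple mutant, mut-14 smut-1 and prg-1 (vertical axes, normalized value + 1, log scale) against its wild-type mean (horizontal axes, log scale). The solid line marks equal levels and the dotted line 0.1 of the wild type. Open circles are members also listed in class ergo. In the prg-1 panel the points follow the solid line because the rule chose them so, and in the other panels most lie under the dotted line.

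Small RNA was concentrated on few members. The top member held 8.14% of the wild-type total of all members, the top 10 held 31.4% and the top 43 held 68.7%. The pseudogene Y17D7C.3, which is also in class ergo, led with 3550, 2526 and 3078 in the triple mutant, 1075, 1002 and 6765 in mut-14 smut-1, 83813, 56045 and 28942 in prg-1, and 46643, 60294 and 55315 in the wild type. The next was eri-6, part of a helicase gene of the ERGO-1 pathway itself, with 618, 738 and 541 in the triple mutant, 583, 652 and 463 in mut-14 smut-1, 18460, 23059 and 26660 in prg-1, and 27655, 29449 and 28871 in the wild type. Both show the general order of the members, with the mutator mutants far under prg-1 and the wild type. The other 8 of the top 10 were T27C5.9, F37D6.3, F15D4.5, Y46H3C.6, Y52B11A.18, ccct-1, Y54G11A.14 and E01G4.5.

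The few members that kept their small RNA without the mutator helicases were led by ptc-1, a gene of the Patched family that is also listed in classes csr and alg. It had 523, 477 and 584 in the triple mutant, 592, 626 and 525 in mut-14 smut-1, 358, 330 and 299 in prg-1 and 358, 282 and 303 in the wild type at generation 50. Here the mutator mutants lay above the other groups without overlap.

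The limits of the rule cut through a continuous range. Just inside the lower ratio limit were igeg-2 at 0.501 and spat-3 at 0.503, and just outside were pqn-65 and T16H12.3, both at 0.499. At the upper limit acdh-1 and suca-1 were inside at 2.00 and 1.99, and F08G12.6 and C05D2.8 outside at 2.00. At the wild-type minimum, M01E5.1 and lact-3 were inside at 51.3 and 51.4, and F14B4.1 and C06A1.3 outside at 47.1 and 44.7.

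A ratio of means hid large differences between the 3 prg-1 lines. All 3 lines lay within 0.5 to 2 times the wild-type mean for 221 members, 2 lines for 122, 1 line for 65 and no line for 19. The highest prg-1 line exceeded the lowest by a median of 1.73 times and by over 4 times in 80 members, with a largest ratio of 752. Among the wild-type lines the median was 1.16, 2 members passed 4 times, and the largest ratio was 13.8. Y54G11A.14 had 695, 52929 and 1159 in the prg-1 lines and 12798, 14334 and 14293 in the wild type, so 1 line was above and 2 were far below the wild type. For ZK686.6 the prg-1 lines had 22.0, 6.47 and 4867 and the wild-type lines 2887, 2900 and 2926. A single high line brought both genes inside the limits.

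Generation 1 offered a test of the members in libraries the rule did not use. Of 256 tested members, 73 had more and 78 had less small RNA in prg-1 than in the wild type, and the median log2 change was −0.03. Over all 7418 features, 27.9% were called higher and 38.3% lower, against 28.5% and 30.5% of the members. Under library totals the split was 32 higher and 101 lower. Of the 162 members with a wild-type mean of at least 50 in this table, 91 lay at 0.5 to 2 times the wild type, 33 under and 38 over. By comparison, 1125 of 1235 tested genes with a generation 50 ratio under 0.5 were lower and 168 of 225 with a ratio over 2 had more in generation 1 prg-1.

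With the other prg-1 allele, lower calls outnumbered higher ones among the members. In prg-1(tm872) at 68 h, 64 of 254 tested members had more and 136 less small RNA than their own wild type, with a median log2 change of −0.52, where 34.2% of all 7273 features were higher and 41.4% lower. The member total was nevertheless 12.5 ± 0.298% of the library in prg-1(tm872) and 10.9 ± 0.368% in the wild type (SD, n = 3 each). Of the members at 50 or more in the wild type of both series, 57 of 162 stayed within 0.5 to 2 in both, 28 were under 0.5 in both and 14 were over 2 in both. Of 253 members tested in both, 69 were called lower in both, 39 higher in both, 17 in opposite directions and 29 in neither. Such joint counts were not made over all features, of which 38.3% were lower in generation 1 and 41.4% at 68 h. Higher were 27.9% and 34.2%. The series differ in allele, age and strain, so these causes cannot be told apart.

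The steepest called loss in generation 1 was that of Y52B11A.18, which RefSeq lists as a pseudogene. Its small RNA was 125, 17.6 and 19.8 in generation 1 prg-1, against 5159, 5509 and 5743 in the wild type, a log2 change of −7.23 ± 1.09 (SE; limma adjusted p = 0.000185). In prg-1(tm872) it was 109, 42.3 and 44.6, against 8287, 8699 and 8725 in the wild type, a change of −7.15 ± 0.29 (adjusted p = 2.23e-08). The generation 50 lines of prg-1(n4357) did the opposite, with 26773, 22792 and 25001 against 12937, 15665 and 14498 in the wild type. No library of the prg-1 and wild-type groups overlapped in any of the 3 series.

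Further loci lost small RNA in both of these series yet met the rule at generation 50. The Pumilio-related puf-4 had 36.3, 11.1 and 10.9 in generation 1 prg-1 against 401, 395 and 407 in the wild type, and 6.01, 5.29 and 2.12 in prg-1(tm872) against 693, 761 and 732. T22F3.12 had 11.3, 2.79 and 3.95 against 132, 149 and 152 in generation 1, and 5.01, 1.06 and 2.12 in prg-1(tm872) against 216, 266 and 286. The F-box gene fbxb-22 had 1.13, 0.929 and 0 against 100, 95.2 and 97.2 in generation 1, and 3.00, 1.06 and 2.12 in prg-1(tm872) against 125, 160 and 127. All were called lower, with log2 changes of −4.52, −4.56 and −5.94 in generation 1, the last of which depends on the pseudocount since few reads remained. The generation 50 prg-1 lines of T22F3.12 were at 1192, 1060 and 1094, beside 972, 1169 and 1195 in the wild type.

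Other members gained small RNA without PRG-1. The largest called rise in generation 1 was that of B0261.8, with 2297, 2587 and 2674 in prg-1 and 94.4, 95.2 and 76.2 in the wild type (log2 change 4.82 ± 0.39, limma adjusted p = 2.17e-06). The allele tm872 did not show it: B0261.8 had 11, 8.46 and 11.7 there against 244, 244 and 196 in the wild type (−4.34 ± 0.18, adjusted p = 2.09e-08). The flavin monooxygenase gene fmo-5 was higher in both, with 1393, 1596 and 1651 against 94.4, 86.1 and 75.5 in generation 1, and 5411, 5745 and 5645 against 155, 161 and 143 at 68 h. So was anc-1, which encodes a giant protein that anchors nuclei, with 3356, 3774 and 3785 against 490, 440 and 430 in generation 1, and 15727, 16608 and 15855 against 719, 809 and 791 at 68 h. T20F7.5 rose most in prg-1(tm872), to 8085, 7298 and 8209 against 36.4, 40.9 and 39.2 in the wild type, with 103, 114 and 89.9 against 23.8, 22.3 and 26.2 in generation 1.

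The members called in opposite directions in the 2 series include strm-1, a sterol methyltransferase gene, and ZK686.6. In generation 1, strm-1 had 1541, 1764 and 1606 in prg-1 against 448, 489 and 526 in the wild type (1.75 ± 0.70, adjusted p = 0.0489). In prg-1(tm872) it had 9.01, 2.12 and 2.12 against 619, 799 and 837 (−7.34 ± 0.40, adjusted p = 1.6e-07). ZK686.6 had 3397, 3749 and 3593 against 1116, 1088 and 1181 in generation 1, and 20.0, 3.17 and 19.1 against 1868, 2094 and 1862 at 68 h. In both genes the groups of each series were far apart and the order was reversed.

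**Figure D3:**
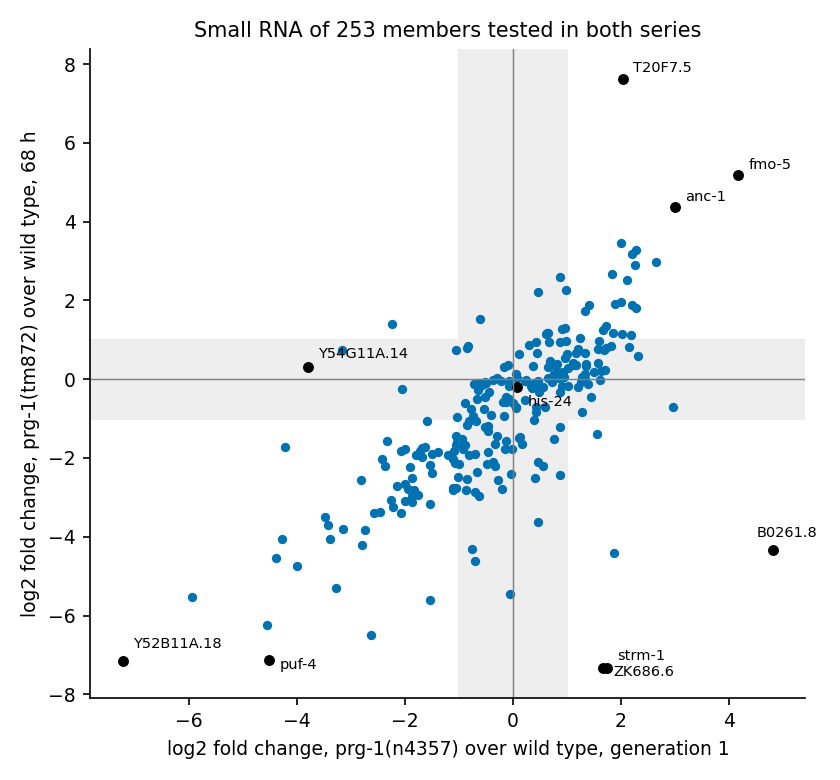
Log2 fold change of small RNA in prg-1(tm872) over its wild type at 68 h (vertical axis) against that in prg-1(n4357) over its wild type at generation 1 (horizontal axis) for 253 members tested in both. Grey bands mark changes under 2-fold. Named in black are Y52B11A.18 and puf-4 at the lower left, strm-1, ZK686.6 and B0261.8 at the lower right, and anc-1, fmo-5 and T20F7.5 at the upper right.

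Loss of the mutator helicases removed the small RNA of nearly all tested members in generation 1. In mut-14 smut-1, 246 of 256 tested members were lower than in the wild type, 245 of them by at least 2-fold and 184 by at least 8-fold, and 4 were higher, with a median log2 change of −4.24. Over all features, 46.9% were lower and 21.9% higher. Within class mut, the loss was not particular to the members. Among genes with a prg-1 ratio under 0.5, 1220 of 1235 were lower, and among those over 2, 215 of 225. In all 246 members, both mut-14 smut-1 libraries lay under every wild-type library. Neither this count nor the 8-fold count was made over all features. The change of eri-6 was −6.57 ± 0.68 (adjusted p = 1.04e-05), with a mean of 97.8 in mut-14 smut-1 (n = 2) against 9363, 8984 and 9243 in the wild type. The linker histone gene his-24 had 28.5 and 24.1 against 3728, 3621 and 3667 (−7.08 ± 0.32, adjusted p = 4.13e-08).

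The deepest losses under the naming rule were those of Y54G11A.14, puf-4, arrd-15, Y94H6A.10 and K05C4.9. Y54G11A.14 had 13.2 and 3.21 in mut-14 smut-1 against 2954, 3122 and 3229 in the wild type, and arrd-15, an arrestin-domain gene, had 0 and 0 against 277, 292 and 305. The 4 members that were higher were ptc-1, Y79H2A.3, F55C9.5 and ccct-1, with log2 changes of 0.47 to 0.96. Of these, ptc-1 had a mean of 142 in the 2 mut-14 smut-1 libraries against 98.5, 97.7 and 107 in the wild type (adjusted p = 0.0274), and its call was lost without mut-14 smut-1 replicate 1 (log2 change 0.23) or wild-type replicate 1 or 2 (0.45 and 0.44). The call of F55C9.5 was lost without mut-14 smut-1 replicate 1 (0.27) or wild-type replicate 1 (0.45), which left 2 higher members in either case. The generation 1 wild-type level of ccct-1 was 49.2, 47.1 and 38.1, against 13424, 14453 and 14316 at generation 50, and how each table counted its reads is not stated in the labels.

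The same held in the absence of PRG-1. In the triple mutant, 230 of 256 tested members were lower than in prg-1 and 1 was higher, with a median log2 change of −4.49, where 23.6% of all features were lower and 10.3% higher. Among the genes with a generation 50 ratio under 0.5, whose small RNA is low in prg-1 already, 398 of 1235 were lower and 22 higher, and among those over 2, 218 of 225 were lower and none was higher. cdh-12, of the cadherin family, had 1.30, 1.37 and 28.9 in the triple mutant against 8730, 9845 and 9153 in prg-1 (−10.72 ± 0.90, adjusted p = 2.95e-06). Y37H9A.2 had 1.30, 1.37 and 74.3 against 9296, 10087 and 9713 (−10.35 ± 1.09, adjusted p = 2.07e-05). In both genes the third triple-mutant library was the one with reads above a few.

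The triple mutant and mut-14 smut-1, which differ in prg-1 and in unc-119, were also compared directly. In generation 1, 4 of 256 were higher and 20 lower in the triple mutant than in mut-14 smut-1, against 2.9% and 3.18% of all features. Without the third triple-mutant library 45 were lower, without the first mut-14 smut-1 library 4 and without the second 32. At generation 50, 18 of 427 were higher and 68 lower, where 6.05% of all features were higher and 48.6% lower, and without the third mut-14 smut-1 line 39 were higher. The 10968 features tested at generation 50 include miRNAs and repeat some genes across classes, against 7418 features in generation 1. They were not broken down by kind, so 48.6% is no like baseline for the members. Within class mut, 15.9% of the members were lower, against 28.8% of genes with a ratio under 0.5 and 28.1% of those over 2. The generation 50 fit pooled the spread over all groups, among them the prg-1 and wild-type lines that chose the members. Members could also pass the filter through those lines alone, so these generation 50 calls draw partly on the choosing values. Y52B11A.18 was lower at both times: 4.56, 1.37 and 72.3 in the triple mutant against 367 and 355 in mut-14 smut-1 at generation 1 (−5.20 ± 1.22, adjusted p = 0.0346), and 37.1, 58.8 and 42.7 against 450, 550 and 399 at generation 50 (−3.32 ± 0.17, adjusted p = 3.13e-09). The generation 1 call was lost without mut-14 smut-1 replicate 1 (−5.17) or 2 (−5.22) or triple-mutant replicate 1 (−4.78) or 2 (−4.16). C04G6.6 was higher at both times, with 59.9, 68.3 and 72.3 against 43.9 and 45.7, and 242, 237 and 216 against 173, 173 and 174, but its generation 1 call was lost without either mut-14 smut-1 library (0.53 and 0.59), without triple-mutant replicate 2 or 3 (0.54 and 0.50) and with edgeR (0.51), and its generation 50 call with scaling to miRNAs (0.38).

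The mutator effect itself was compared between backgrounds as the log2 change from prg-1 to the triple mutant minus the change from wild type to mut-14 smut-1. In generation 1 small RNA, this difference was above 0 in 51 and below 0 in 65 of 256 members, where 31% and 20.4% of all features were above and below. Under library totals the split was 61 above and 39 below. Below 0 were members that gained small RNA in prg-1 and lost it in both mutator mutants, led by fmo-5 at −6.41 ± 0.62 and B0261.8 at −5.36 ± 0.59. Above 0 were members already low in prg-1, such as fbxb-22 at 6.48 ± 0.66 and puf-4 at 4.88 ± 0.97. All 4 had a limma adjusted p of at most 0.00199. The same difference is the triple mutant against mut-14 smut-1, not called in 232 of 256 members, minus prg-1 against the wild type. Where the mutator strains do not differ, it mirrors the prg-1 change with its sign reversed and is no separate result.

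Members also listed in class ergo are given here apart from the rest. In generation 1 prg-1, 22 of 33 tested ergo members were higher and 1 lower, while outside that class 51 of 223 were higher and 77 lower, and over all features 27.9% were higher and 38.3% lower. Under library totals, 12 of the 33 were higher and 2 lower. E01G4.5 had 2869, 3335 and 3365 in prg-1 against 1201, 1351 and 1239 in the wild type (1.33 ± 0.31, adjusted p = 0.00347). At 68 h, 10 of 33 ergo members were higher and 5 lower, against 34.2% and 41.4% of all features, and under library totals 4 were higher and 7 lower. There E01G4.5 had 3052, 3106 and 3208 in prg-1(tm872) against 2000, 3666 and 4018 in the wild type, with overlap. In mut-14 smut-1 of generation 1, 30 of 33 were lower and 1 higher, against 46.9% and 21.9% of all features, with 26 lower and 4 higher under library totals. The difference between the classes was not tested, and the ergo members had higher wild-type levels at generation 50, with a median of 1124 against 205.

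The mRNA of the members followed no single direction. In mut-14 smut-1 of generation 1, 111 of 272 tested members had more and 85 less mRNA than in the wild type (40.8% and 31.2%), where 38.1% and 39.9% of all 14618 genes were called. Under library totals the split was 131 higher and 62 lower. By at least 2-fold, 47 were higher and 14 lower, where 19.1% of all genes were higher and 2.55% lower. At generation 50, 58 of 299 were higher and 49 lower, against 16.5% and 11.3% of 16328 genes, and without wild-type line 1 or 3 the lower members were 30 and 25. Of the 272 members tested at both times, 47 were higher at both, 32 lower at both and 6 opposite. Of all 14586 genes tested at both times, 2244 were higher at both, 1158 lower at both and 343 opposite.

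Loss of small RNA was not matched by a gain of mRNA in most members. Of the 207 tested members with less small RNA in generation 1 mut-14 smut-1, 85 (41.1%) had more mRNA, 71 (34.3%) had less, and the other members passed no test. For all genes with less small RNA there, 837 of 3077 (27.2%) had more and 1542 (50.1%) less mRNA. For genes with a generation 50 prg-1 ratio over 2, 99 of 171 (57.9%) had more. In the triple mutant against prg-1, 72 of 188 members with less small RNA had more mRNA and 26 had less, against 466 and 351 of 1493 among all genes.

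In mut-14 smut-1, mRNA was higher at both times in 47 of 272 tested members and in 2244 of 14586 genes. In 38 of these members small RNA was also lower in generation 1, a step that was not counted over all genes. At the top stood F15D4.5, whose mRNA was 4886, 4759 and 5210 in mut-14 smut-1 against 81.6, 76.4 and 75.5 in the wild type at generation 1 (5.97 ± 0.09, adjusted p = 2.19e-17), and 5579, 14331 and 6281 against 86.9, 155 and 83.7 at generation 50 (6.24 ± 1.06, adjusted p = 0.00273). Its small RNA in generation 1 was 463 and 353 in mut-14 smut-1 against 6703, 6217 and 6464. In generation 1 prg-1, where its small RNA was 15328, 16884 and 16501, the mRNA averaged 98.6 ± 16.2 against 77.8 ± 3.26 in the wild type (SD, n = 3 each), a called but small change of 0.33 (adjusted p = 0.00576).

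The ribonuclease H gene rnh-1.3 had 1378, 1536 and 1535 in mut-14 smut-1 against 182, 154 and 190 in the wild type at generation 1 (3.08 ± 0.10, adjusted p = 4.09e-13) and 204, 156 and 217 in prg-1. The F-box gene fbxb-14 had 226, 188 and 227 in mut-14 smut-1 against 11.2, 14.2 and 6.29 (4.28 ± 0.23, adjusted p = 1.08e-10). F15D4.6, Y102A5C.4, ZC15.10 and K09H11.11 also rose in mut-14 smut-1, with log2 changes of 3.36 to 5.03 in generation 1. F55B11.6 and Y79H2A.4 differed in that prg-1 alone also had more mRNA: F55B11.6 had 89.1, 97 and 70.4 in the triple mutant, 82.7, 104 and 80.3 in mut-14 smut-1, 110, 100 and 109 in prg-1, and 0, 0.944 and 1.05 in the wild type. The wild-type level of F55B11.6 rests on single reads, so the size of its change depends on the pseudocount.

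**Figure D4:**
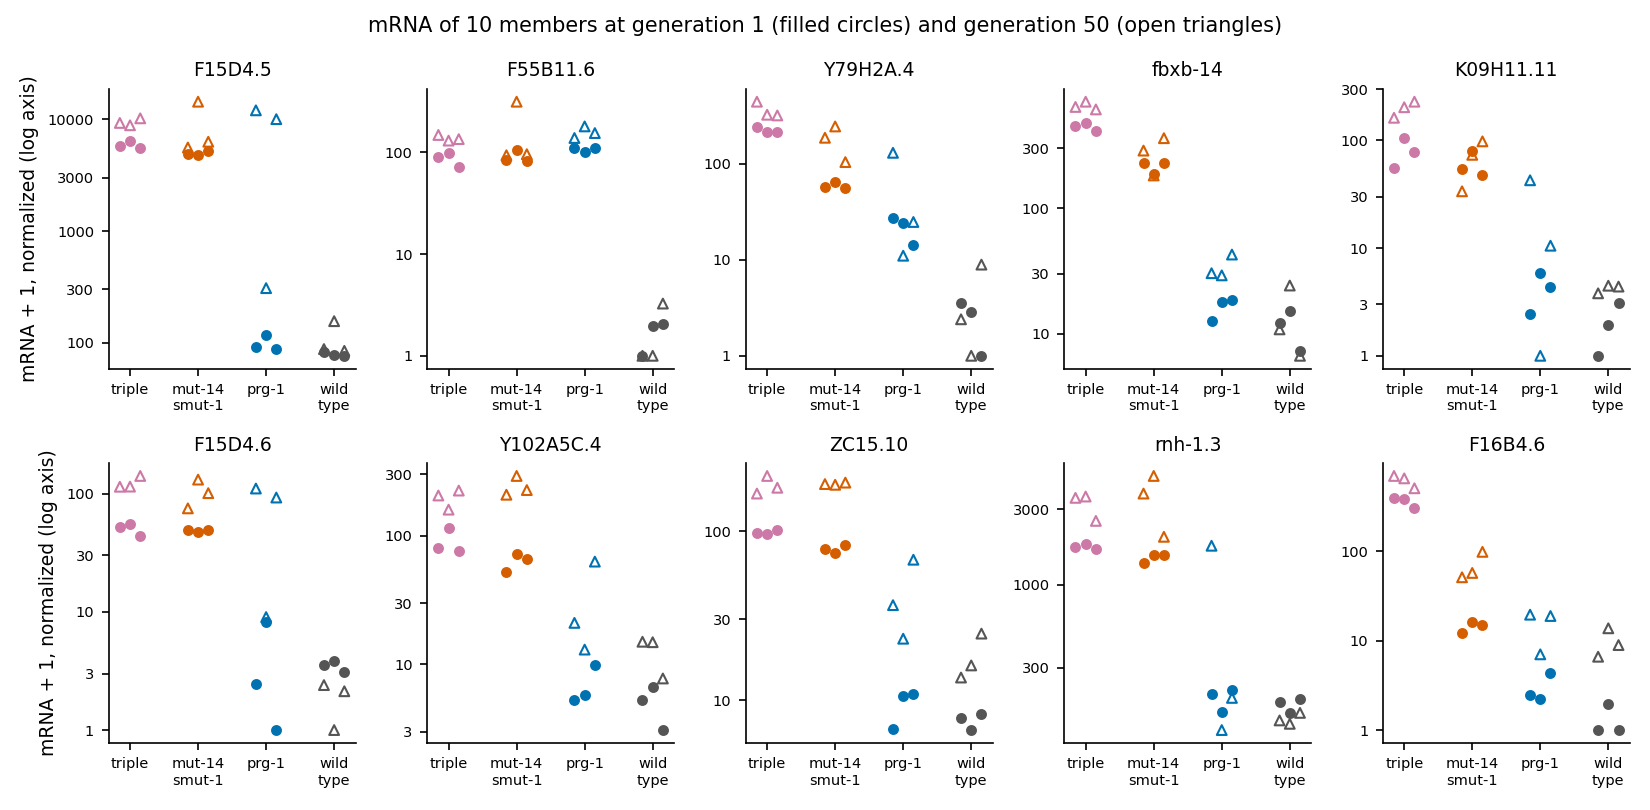
mRNA (vertical axes, normalized value + 1, log scale) of the 10 members that led the list of lower small RNA and higher mRNA without MUT-14 and SMUT-1, by genotype. Filled circles are generation 1 libraries and open triangles generation 50 lines. Within each generation, the triple and mut-14 smut-1 libraries of all 10 lie above the wild type, and F16B4.6 is higher in the triple mutant than in mut-14 smut-1.

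In prg-1, 53 of 272 members had more and 79 less mRNA in generation 1, against 25.6% and 32% of all genes, and the median log2 change was −0.05. Under library totals the split was 72 higher and 61 lower. At generation 50, 21 of 299 were higher and 17 lower, against 7.41% and 3.8% of all genes. Leaving out single lines gave 10 to 20 higher, the lowest without prg-1 line 1 or wild-type line 3, and 3 to 13 lower, the lowest without prg-1 line 2 or wild-type line 3. The glutathione S-transferase gene gst-10 was higher in every mutant group, with 599, 617 and 651 in the triple mutant, 662, 630 and 651 in mut-14 smut-1, 549, 493 and 501 in prg-1, and 217, 246 and 236 in the wild type of generation 1. Its prg-1 change was 1.14 ± 0.07 in generation 1 and 1.55 ± 0.27 at generation 50 (adjusted p = 1e-09 and 0.0082). R03H10.6 was highest in prg-1, with 21.6, 15 and 14.1 in the triple mutant, 14.5, 25.1 and 24.9 in mut-14 smut-1, 94.2, 79.7 and 100 in prg-1 and 6.01, 7.55 and 5.24 in the wild type. F02H6.4, a pseudogene in RefSeq, was lowest in prg-1, with 458, 490 and 462 in the triple mutant, 399, 397 and 412 in mut-14 smut-1, 213, 210 and 229 in prg-1 and 784, 800 and 794 in the wild type.

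Some members had far more mRNA in the triple mutant than in mut-14 smut-1 or prg-1. F37D6.3 had 444, 520 and 482 in the triple mutant, 33.7, 29.4 and 37.4 in mut-14 smut-1, 15.9, 22.9 and 29.8 in prg-1 and 18.9, 12.3 and 17.8 in the wild type of generation 1. The difference of the mutator effect between backgrounds was 3.37 ± 0.31 (limma adjusted p = 6.27e-07). F16B4.6 had 390, 381 and 301 in the triple mutant, 11.2, 15.3 and 13.8 in mut-14 smut-1, 1.45, 1.21 and 3.31 in prg-1 and 0, 0.944 and 0 in the wild type, with a difference of 3.44 ± 0.51 (adjusted p = 0.000106). In both genes the triple mutant stood clear of every other library.

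At generation 50 the pattern held for F16B4.6, with 693, 651 and 504 in the triple mutant against 50.1, 56.1 and 97.4 in mut-14 smut-1 and a difference of 2.65 ± 0.64 (adjusted p = 0.0404). For F37D6.3 the triple mutant had 688, 623 and 682 against 56.6, 52.5 and 199 in mut-14 smut-1 (2.97 ± 0.44, adjusted p = 0.0103), but the difference of the mutator effect, 1.32 ± 0.62, did not pass (adjusted p = 0.196). Without triple-mutant line 1, both generation 50 calls against mut-14 smut-1 were lost (3.12 for F16B4.6 and 2.94 for F37D6.3), and the difference of F16B4.6 lost its call without mut-14 smut-1 line 1, prg-1 line 2, any triple-mutant line or wild-type line 2 or 3, at values of 2.17 to 2.79, and with library totals (2.48). Y52B11A.18, whose small RNA was lost in generation 1 prg-1, had mRNA of 32.9, 33.5 and 23.1 in the triple mutant, 8.03, 9.81 and 9.69 in mut-14 smut-1, 0 in all 3 prg-1 libraries and 6.01, 5.66 and 3.15 in the wild type.

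Over all tested members, the triple mutant against mut-14 smut-1 gave 24 higher and 13 lower of 272 in generation 1, where 6.01% of all genes were higher and 5.51% lower, and 8 were lower without mut-14 smut-1 replicate 2 or 3. At generation 50 it gave 6 higher and 0 lower of 299, where 1.41% and 0.545% of all genes were called, and 27 higher and 11 lower without the third mut-14 smut-1 line. The oocyte and eggshell markers also differed in that comparison, by the sums given further on. Without triple-mutant lines 1, 2 and 3 in turn it gave 0, 2 and 3 higher. Under library totals the generation 50 split was 5 higher and 1 lower. Against prg-1, the triple mutant gave 105 higher and 40 lower in generation 1 (25.7% and 28.2% of all genes) and 11 higher and 4 lower at generation 50 (0.416% and 0.294%). Without any one triple-mutant line the generation 50 count was 3 higher, and without prg-1 line 2 it was 5.

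The difference of the mutator effect on mRNA was above 0 in 74 and below 0 in 34 of 272 members in generation 1, against 19.9% and 17.2% of all genes. It was above 0 in 12 and below in 7 of 299 at generation 50, against 1.73% and 2.86%. Under library totals these splits were 54 and 45 in generation 1 and 4 and 8 at generation 50. The triple mutant and mut-14 smut-1 were not called different in 235 of the 272 and in 293 of the 299. Where these strains do not differ, the difference in mRNA also mirrors the prg-1 change with its sign reversed. Leaving out single libraries moved the generation 50 count above 0 between 1 and 38, with 26 and 38 without mut-14 smut-1 lines 2 and 3 and 1 without triple-mutant line 1 or wild-type line 3.

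The 8 histone members were his-24 and 7 genes of histone H4, a core histone with many near-identical copies whose reads cannot be assigned to one copy. In generation 1, none of the 8 was called in prg-1 small RNA, where 27.9% of all features were higher and 38.3% lower, and all 8 had less in mut-14 smut-1, where 46.9% were lower. In prg-1(tm872), 3 of the 8 had less and none had more, against 41.4% of all features lower. Their mRNA was lower in 7 of 8 in prg-1 and in 7 of 8 in mut-14 smut-1 of generation 1, against 32% and 39.9% of all genes. his-5 had 963, 920 and 939 in the triple mutant, 766, 1065 and 852 in mut-14 smut-1, 755, 833 and 762 in prg-1 and 2148, 1579 and 1860 in the wild type. The prg-1 change was −1.24 ± 0.11 and the mut-14 smut-1 change −1.06 ± 0.11 (adjusted p = 1.05e-07 and 1.51e-07). At generation 50, 3 of 8 were lower in prg-1 and 6 of 8 in mut-14 smut-1, against 3.8% and 11.3% of all genes, and the prg-1 calls of his-28 and his-50 were lost without any one of the prg-1 or wild-type lines (log2 changes of −1.76 to −1.37). The genes his-50 and his-28 had identical values in every mRNA library.

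The 3 prg-1 lines of generation 50 carry the same line numbers in small RNA and mRNA, which allows a comparison by line. In 58 members the small RNA of the prg-1 lines differed by over 4 times and the highest mRNA line was at 50 or more. The line with the least small RNA had the most mRNA in 25 of these, and the line with the most small RNA had the most mRNA in 20. In 7 of the 58 the mRNA lines were also over 4 times apart, and in all 7 the line with the least small RNA had the most mRNA. Among genes with a ratio under 0.5 this was so in 4 of 8, and among those over 2 in 8 of 12. With 3 lines there is no test within a gene, and the 7 were picked after their values were seen.

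F15D4.5 had the highest single value of each kind of RNA among the 7: prg-1 lines 1, 2 and 3 had small RNA of 1034, 53148 and 5613 and mRNA of 11997, 307 and 10001. Line 2, with more small RNA than any wild-type line, had the least mRNA. For rnh-1.3 small RNA was 5489, 18086 and 23666 and mRNA 1767, 120 and 193. The pseudogene C06C3.5 had small RNA of 90.1, 26044 and 11231 and mRNA of 472, 100 and 398. The other 4 were F15D4.6, which lies next to F15D4.5, Y73B3A.11, Y79H2A.4 and fbxa-118.

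**Figure D5:**
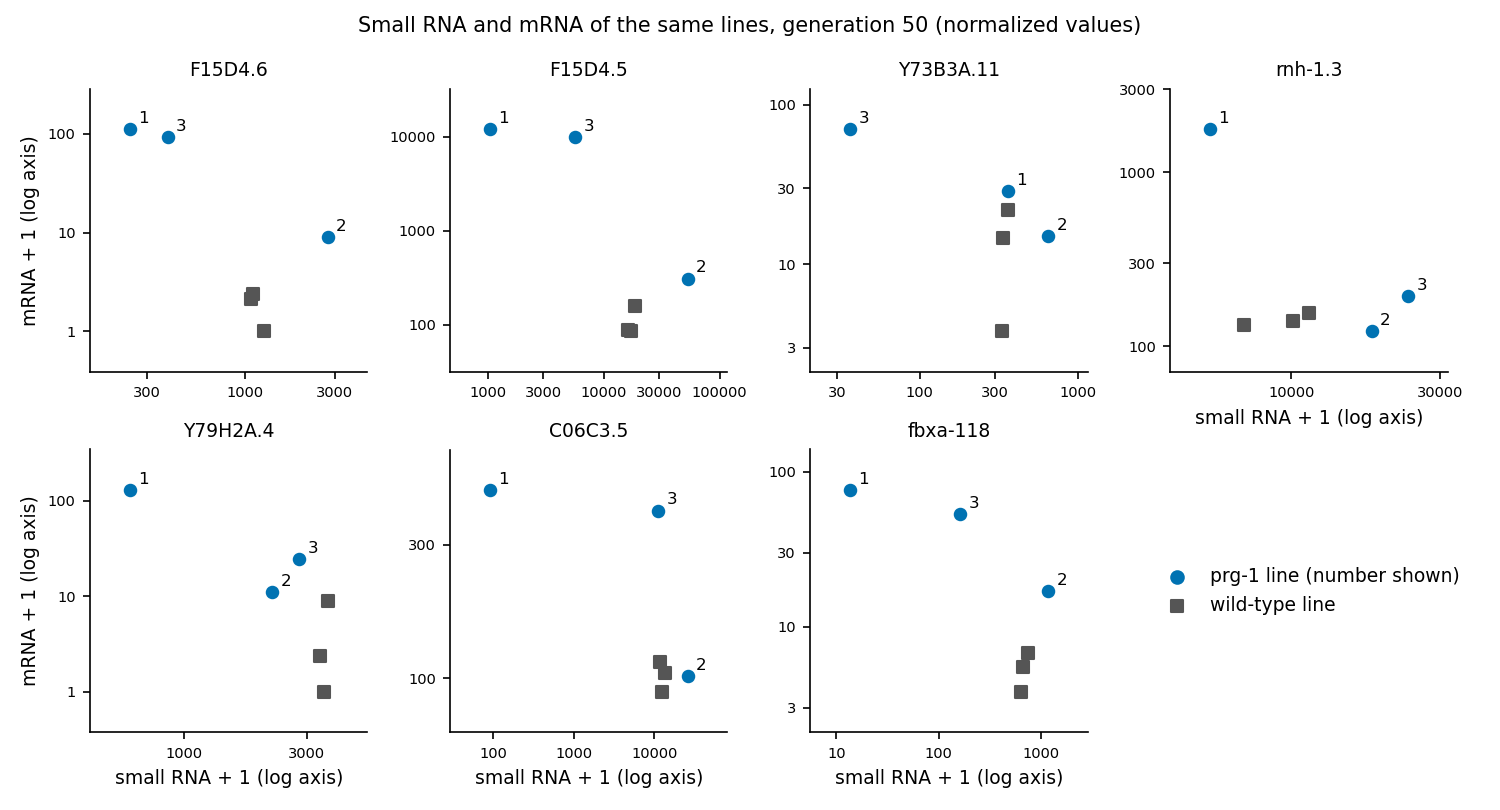
mRNA (vertical axes) against small RNA (horizontal axes) of the same generation 50 lines for 7 members, as normalized value + 1 on log scales. Numbered circles are the 3 prg-1 lines and squares the 3 wild-type lines. In each panel the prg-1 line with the least small RNA has the most mRNA.

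The genes of the pathway moved too. In generation 1, 21 of 23 tested mutator and amplification factors had less mRNA and 2 had more in prg-1, with a median log2 change of −0.28. In mut-14 smut-1, 21 had less and 1 had more, with a median of −0.54, and the list includes mut-14 and smut-1 themselves. Over all genes, 32% were lower and 25.6% higher in prg-1, and 39.9% were lower and 38.1% higher in mut-14 smut-1. Of the 6 germline markers, 5 were lower in prg-1 (median −0.24) and 6 in mut-14 smut-1 (median −0.52). Of the 10 oocyte and eggshell markers, 8 were lower in prg-1 (median −0.28) and 10 in mut-14 smut-1 (median −0.73), and the part of either list in these counts was not tested. Of 22 tested Argonautes, prg-1 had more mRNA of 5 and less of 10, and mut-14 smut-1 more of 4 and less of 14. At generation 50, 1 mutator factor was higher and none lower in prg-1, against 7.41% and 3.8% of all genes. In mut-14 smut-1, 1 was higher and 6 were lower, against 16.5% and 11.3% of all genes. The list was drawn up with earlier results of these data known.

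Tissue markers moved with the genotypes as well. The summed mRNA of 10 oocyte and eggshell markers in generation 1 was 113405 to 127655 in the triple mutant, 115439 to 131848 in mut-14 smut-1, 150814 to 165544 in prg-1 and 189115 to 206343 in the wild type. At generation 50 it was 171833 to 204874 in the triple mutant, 111738 to 135509 in mut-14 smut-1, 149714 to 204368 in prg-1 and 179524 to 210097 in the wild type. Of the 10, 5 were called higher and none lower in the triple mutant than in mut-14 smut-1. Over all genes, 1.41% were higher and 0.545% lower in that comparison. The sum of 7 sperm markers averaged 1825 ± 190 in the triple mutant, 1273 ± 66.6 in mut-14 smut-1, 519 ± 11.1 in prg-1 and 184 ± 20.8 in the wild type of generation 1, with no overlap between groups. At generation 50 this sum was 1574 ± 282 in the triple mutant, 1390 ± 196 in mut-14 smut-1, 1295 ± 216 in prg-1 and 248 ± 222 in the wild type (SD, n = 3 each). The sum of 6 germline markers in generation 1 was 17314 to 19526 in the triple mutant, 17067 to 18585 in mut-14 smut-1, 22052 to 24081 in prg-1 and 25150 to 26406 in the wild type. In generation 1, all 3 muscle markers were higher in prg-1 and in mut-14 smut-1, where 25.6% and 38.1% of all genes were higher. Of 7 intestine markers, 6 were lower and 1 higher in mut-14 smut-1, where 39.9% of all genes were lower. None was called in prg-1. Of 4 neuron markers, 2 were higher in prg-1 of generation 1. At generation 50, 3 were lower, where 3.8% of all genes were. Of 5 tested embryo markers, 2 were lower in prg-1 of generation 1. No marker of these lists was at 0 in every library of a group. Their part in the mRNA changes of the members was not tested.

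Some members lay side by side in the genome. Of 331 members placed in the WBcel235 gene order, 45 (13.6%) lay next to another member, against 24.1% of the placed genes with a ratio under 0.5 and 19.4% of those over 2 within their own groups, a description that also depends on the size of each group. There were 3 runs of 3 members: F15D4.5, F15D4.6 and Y48C3A.5, then Y105C5A.14, Y105C5A.1272 and Y105C5A.1271, and Y102A5C.4, Y102A5C.35 and Y102A5C.36. In the last run, Y102A5C.36 had mRNA of 171, 224 and 172 in the triple mutant, 180, 172 and 207 in mut-14 smut-1, 4.35, 9.66 and 4.42 in prg-1 and 61.0, 51.9 and 61.9 in the wild type of generation 1, lowest in prg-1.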

How the data were processed

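The authors deposited normalized signal values per gene, which are read counts divided by a factor per library, as the values show; the sources used here give no aligner, counter or build, and mRNA kits by library are not stated. After rescaling, 100% of the small RNA values were whole reads within 0.01. Members and gene lists were chosen with earlier results of these data known. Values were taken as log2(value + 1), features with at least 10 in as many libraries as the smallest group were kept, and each table was fitted with limma 3.58.1 (R 4.3.3) using group means, a mean-variance trend and Benjamini-Hochberg adjustment over all features. The plan named limma for these values and edgeR only for raw counts, and edgeR 4.0.16 on recovered small RNA reads is an alternative. Other alternatives were a pseudocount of 8, a filter of 50, no filter, library totals, miRNA scaling, a replicate block and leaving out each library. Gene names came from the tables and RefSeq (WBcel235), which matched 337 of 427 IDs. Named genes were the 10 highest in wild-type small RNA, the nearest to each limit, the 5 largest called changes each way per comparison without overlap between groups and with a higher group averaging at least 50 (small RNA) or 100 (mRNA), 10 with opposite small RNA and mRNA changes, and list members; a selection is printed, and other names were chosen after their values were seen. The test was checked only on simulated data with the same depth and spread in every library, which the real libraries do not share.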

Additional observations from a re-analysis of the deposited data

Results flagged for a closer look

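These results were picked because the effect of losing MUT-14 and SMUT-1 differed between the prg-1 and the wild-type background by the test of that difference (limma, adjusted p under 0.05). Only the mut-14 smut-1 strain carried unc-119(ed3), so unc-119 and the prg-1 background cannot be told apart in them. The triple mutant and mut-14 smut-1 were not called different in 232 of 256 members in generation 1 small RNA. In mRNA this was so in 235 of 272 in generation 1 and 293 of 299 at generation 50. Where these strains do not differ, the difference largely mirrors the prg-1 change with its sign reversed, in small RNA and in mRNA. Values are log2 differences, the change from prg-1 to the triple mutant minus the change from wild type to mut-14 smut-1, with 3 libraries per group, or 2 for mut-14 smut-1 small RNA. Of the generation 50 genes, Y51H4A.29, F16B4.6, his-5, spat-3, ifta-1, F15D4.6 and C04G6.6 lost the call when some single lines were left out. For genes at or near 0 reads in a group the size depends on the pseudocount.

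In generation 1 small RNA, 51 members were above 0 and 65 below. The largest above 0 were fbxb-22 at 6.48, fbxa-216 at 5.59, C40A11.7 at 5.07, puf-4 at 4.88 and C14A6.2 at 4.28. The largest below 0 were fmo-5 at −6.41, B0261.8 at −5.36, cdh-12 at −3.88, Y34D9A.8 at −3.86 and dbd-14 at −3.84. The call of cdh-12 was lost without any one of 9 of the 11 libraries, and that of puf-4 with edgeR (4.69).

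In generation 1 mRNA, 74 members were above 0 and 34 below. The largest above 0 were K10E9.2 at 4.84, Y52B11A.18 at 4.12, F16B4.6 at 3.44, F37D6.3 at 3.37 and Y102A5C.36 at 3.14. The largest below 0 were F55B11.6 at −6.14, R03H10.6 at −3.99, fbxa-118 at −3.68, Y53G8AL.1 at −3.12 and M162.12 at −2.20. K10E9.2 shares nearly all its values with another entry and had 39.8, 87.8 and 48.3 in the triple mutant, 0 in all 3 mut-14 smut-1 libraries, 15.9, 26.6 and 27.6 in prg-1 and 0.859, 29.3 and 30.4 in the wild type.

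In generation 50 mRNA, 12 members were above 0 and 7 below. The largest above 0 were Y51H4A.29 at 6.13, F16B4.6 at 2.65, his-5 at 1.93, spat-3 at 1.80 and ifta-1 at 1.66. The largest below 0 were F55B11.6 at −6.76, R03H10.6 at −4.69, F15D4.6 at −4.42, Y53G8AL.1 at −2.90 and C04G6.6 at −2.17. Y51H4A.29 had 21.7, 0 and 0 in the triple mutant, 0 in all mut-14 smut-1 and prg-1 lines, and 40.6, 10.4 and 30.5 in the wild type.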

How the results depend on the processing

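Counts below are of members called higher or lower. In generation 1 small RNA, prg-1 against wild type (73 higher, 78 lower) gave 111 higher with edgeR, 32 higher with library totals and 44 lower with a filter of 50. Restricted, after seeing the data, to members with every generation 50 prg-1 line within the limits, it gave 28 and 27, and the tm872 comparison (64, 136) gave 22 and 57. Mut-14 smut-1 against wild type (4 higher) gave 8 with library totals. The triple mutant against prg-1 (1 higher) gave 16 with library totals and 0 with no filter. Against mut-14 smut-1 (4 higher, 20 lower) it gave 1 and 7 with edgeR, 7 higher with a filter of 50, 2 and 13 with a pseudocount of 8 and 13 lower with no filter. The difference of the mutator effect (51, 65) gave 29 higher with a filter of 50, 84 and 99 with a pseudocount of 8, and 39 lower with library totals. At generation 50, the triple mutant against mut-14 smut-1 (18 higher) gave 11 with edgeR. In generation 50 mRNA, the difference (12 higher) gave 4 with library totals and 20 with a pseudocount of 8, and the triple mutant against mut-14 smut-1 (0 lower) gave 4 with a filter of 50, 1 with library totals, 1 with no filter and 2 with a pseudocount of 8. The causes were not tested.

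Numbers shared between genotypes did not pair the libraries, with same-number correlations of −0.27 to 0.33. A replicate block gave, for the triple mutant in generation 1 small RNA, 2 higher and 12 lower against mut-14 smut-1 and 0 higher against prg-1, and in generation 50 mRNA 7 higher and 2 lower against prg-1 (11, 4) and 5 higher for the difference (12).

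Leaving out each library gave, in generation 1, 8 to 14 lower for triple mutant against mut-14 smut-1 mRNA (8 without mut-14 smut-1 replicate 2 or 3), 2 to 4 higher for mut-14 smut-1 small RNA (2 without its replicate 1 or wild-type replicate 1), 3 to 8 higher and 4 to 45 lower for triple mutant against mut-14 smut-1 small RNA (8 higher without mut-14 smut-1 replicate 2), and 0 to 1 higher against prg-1 (0 without prg-1 replicate 2 or 3 or triple-mutant replicate 1). Generation 50 small RNA, triple mutant against mut-14 smut-1, gave 10 to 39 higher (10 and 11 without mut-14 smut-1 lines 1 and 2). In generation 50 mRNA, mut-14 smut-1 gave 25 to 62 lower (30 and 25 without wild-type lines 1 and 3), and prg-1 gave 10 to 20 higher (10, 11 and 10 without prg-1 line 1 and wild-type lines 2 and 3) and 3 to 13 lower (3 and 6 without prg-1 lines 2 and 3, and 9, 5 and 3 without wild-type lines 1, 2 and 3). The triple mutant gave 0 to 27 higher and 0 to 11 lower against mut-14 smut-1 (0, 2 and 3 higher without its lines 1, 2 and 3) and 3 to 11 higher and 1 to 2 lower against prg-1 (3 higher without any one of its lines, 5 without prg-1 line 2, 1 or 2 lower without any one line of either). The difference gave 1 to 38 higher and 3 to 13 lower, with 26 and 38 higher and 12 and 13 lower without mut-14 smut-1 lines 2 and 3, 1 to 6 higher without mut-14 smut-1 line 1, prg-1 line 2, any triple-mutant line or wild-type line 2 or 3, and 3 or 4 lower without any triple-mutant line or wild-type line 3. Of 154 results for named genes, 39 lost their call under some alternative and none reversed. In generation 1 the mutator libraries' depth limits what can be said of members with few reads.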
